A study of Mus musculus with 2 samples.

Results

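The genes described here encode the proteins that fill the granules of neutrophils and their precursors, together with the lysozymes that macrophages also make. They were chosen by name, as the rows of the deposited DNase I table that carry 1 of 10 gene symbols, Mpo, Elane, Prtn3, Ctsg, Lyz1, Lyz2, Ltf, Ngp, Camp and Lcn2. All 10 were found among the 22605 genes of the table, and the transcript with the most windows stands for each gene. M1 is a mouse myeloid leukemia line of immature cells, which take on macrophage features in response to interleukin-6 (IL-6). Both groups were M1 cells at passages 15 to 18, grown in medium with horse serum, and they differed by treatment, with 1 library of untreated cells and 1 library of cells given IL-6 for 4 to 5 days. The study used DNase I sequencing to look for open chromatin upstream of c-myb, in cells without and with IL-6. With 1 library per condition no difference has a replicate check, so no p-value is given, and every interval below is a 95% interval that covers counting error only.

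Granule proteins are made in waves as a neutrophil matures. The azurophil granules come first, in promyelocytes, and hold myeloperoxidase and the serine proteases neutrophil elastase, proteinase 3 and cathepsin G. The specific granules come later and hold lactotransferrin, cathelicidin, lipocalin 2 and neutrophilic granule protein. Lysozyme is stored in granules of neutrophils and is secreted steadily by macrophages. Open chromatin at such genes is more readily cut by DNase I, and the small pieces of DNA it sets free were sequenced, so that more reads mean more cutting. A site that opens in a part of the cells and a site that opens more in each cell cannot be told apart in such a library.

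The deposited value of a gene is a mean of read numbers in windows of 700 bp, taken over all windows touched by the span between its start and stop codon. A read counted 1.0 in the untreated library and 1.04 in the treated library, which the authors had scaled, and the whole reads behind each mean were recovered from these steps. Values below are scaled reads per window unless reads are named, so that genes of different length can be compared. Non-overlapping coding spans held 9102320 reads in the untreated library and 8544903 in the treated one. The median gene had 7.75 reads per window before IL-6 and 8.14 with it. Of the 10 genes, 10 had more than 21 reads over the whole coding span in at least 1 library, as did 18472 genes of the table. The methods use this number for a single hypersensitive site, so a gene that passes it over its span need not hold such a site. Signal at 10 marker genes of myeloid cells, such as Spi1 (listed as Sfpi1), Cebpe and Csf1r, had a median of 11.7 reads per window in untreated cells (range 4.10 to 87.7) and of 7.48 after IL-6 (5.45 to 36.0). Of these 10 genes, 7 had an interval below 1, against 34.4% of tested genes, and 1, Kit, with a ratio of 1.33, an interval above 1, against 29.0%. The marker genes of T cells had a median of 6.95 before and 8.70 after IL-6, those of B cells 6.67 and 9.23, those of muscle 7.09 and 11.3, those of hepatocytes 4.85 and 5.59, and those of neurons 3.38 and 4.47. The erythroid genes Gata1, Klf1 and Epor had a median of 16.0 before IL-6 (range 4.83 to 51.6) and of 19.6 after it (3.11 to 20.6). Their median log2 ratio was nevertheless -0.62. Klf1 had a ratio of 0.398 (0.313 to 0.504), and the intervals of Gata1, with 0.644, and Epor, with 1.22, included no change. The median signal of the myeloid markers was thus below that of the erythroid genes in both libraries. After IL-6 it was also below those of the T cell, B cell and muscle markers. None of these markers was at 0 reads, and DNase I signal over a coding span is not a measure of expression.

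The 3 serine protease genes carried the most signal of the 10 in untreated M1 cells, and the ratio was below 1 at each, with an interval below 1 at Prtn3 and Ctsg but not at Elane. Signal was 51.5 reads per window at Prtn3, 28.2 at Ctsg and 15.0 at Elane, which placed them at the 95.9, 90.5 and 76.9 percentile of all genes. The other 7 genes lay between 5.25 reads per window at Camp and 11.0 at Ltf, around the median gene. In IL-6-treated cells the 10 genes had drawn together, from 7.27 at Camp to 19.2 at Prtn3. The plot of signal in both libraries shows the proteases closer to the others after IL-6, with Ltf, Ngp and Mpo then above Elane.

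**Figure D1:**
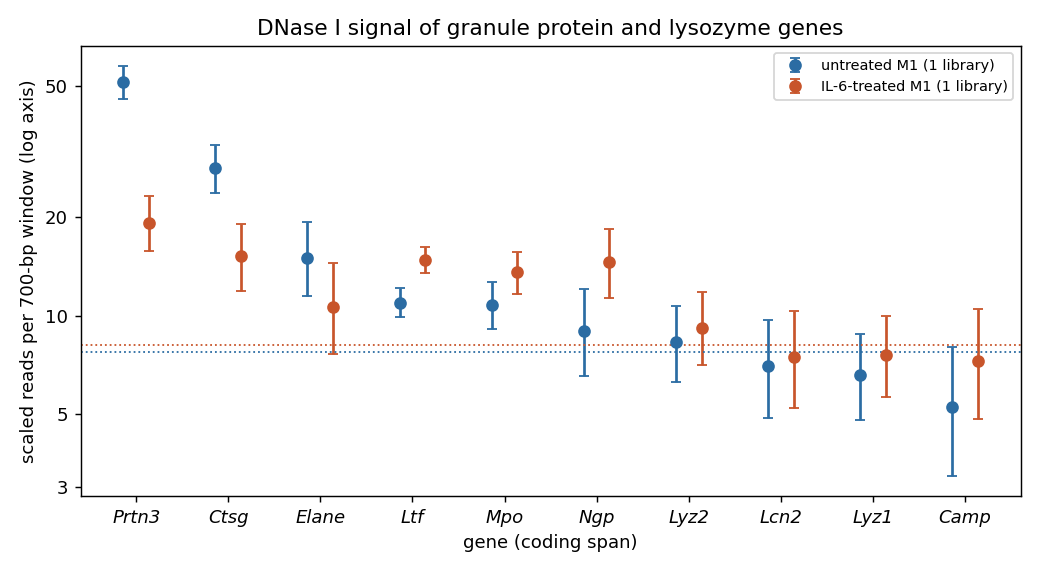
Scaled reads per 700-bp window (log axis) over the coding span of each gene in untreated M1 cells (blue) and IL-6-treated M1 cells (orange), 1 library each, with exact 95% Poisson intervals as bars and the median of all genes as dotted lines. Prtn3 stood highest in both libraries, at 51.5 and 19.2.

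Prtn3 encodes proteinase 3 and Elane neutrophil elastase, neighbors on chromosome 10, and Ctsg on chromosome 14 encodes cathepsin G. On NCBIM37 Prtn3 lies on chromosome 10 from 79337221 to 79345919 on the plus strand, with 5 coding exons and 6 windows. Its annotated start is that of the longest transcript, whereas its start codon, at 79342421, and the start site used for the promoter lie further downstream. Elane follows on the same strand from 79349057 to 79350961, with 5 coding exons and 4 windows. Ctsg, on the minus strand of chromosome 14, spans 56718718 to 56721411, with 5 coding exons and 5 windows. Because the genes are short, the windows reach past the start codon. They hold all 300 bases of the RefSeq promoter, from 250 bases before the transcription start site to 50 after it, at Elane and Ctsg, and 261 of them at Prtn3. These 3 promoters are shown because they lie within the measured windows of the genes with the most signal. They are written 5′ to 3′ on the strand of the gene, were taken from the RefSeq table of build GRCm38.p6 and were placed on NCBIM37 by an exact match. Capitals mark GAGGAA, the core bound by PU.1, TGTGGT, the core bound by Runx factors, and TTNNGNAA, a core of C/EBP sites, on either strand.

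Prtn3, chr10:79342162-79342461, plus strand: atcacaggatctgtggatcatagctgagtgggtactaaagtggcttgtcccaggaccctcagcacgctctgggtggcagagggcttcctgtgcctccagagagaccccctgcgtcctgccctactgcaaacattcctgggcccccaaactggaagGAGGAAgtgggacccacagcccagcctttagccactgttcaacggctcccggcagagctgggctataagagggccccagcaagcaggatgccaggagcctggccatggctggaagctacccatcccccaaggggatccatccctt

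Elane, chr10:79348807-79349106, plus strand: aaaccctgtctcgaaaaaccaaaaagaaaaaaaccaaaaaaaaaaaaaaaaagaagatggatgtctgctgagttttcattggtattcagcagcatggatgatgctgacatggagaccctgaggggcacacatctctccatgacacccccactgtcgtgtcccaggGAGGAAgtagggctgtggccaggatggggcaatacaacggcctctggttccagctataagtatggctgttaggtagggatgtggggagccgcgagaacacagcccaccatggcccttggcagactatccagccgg

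Ctsg, chr14:56721362-56721661, minus strand: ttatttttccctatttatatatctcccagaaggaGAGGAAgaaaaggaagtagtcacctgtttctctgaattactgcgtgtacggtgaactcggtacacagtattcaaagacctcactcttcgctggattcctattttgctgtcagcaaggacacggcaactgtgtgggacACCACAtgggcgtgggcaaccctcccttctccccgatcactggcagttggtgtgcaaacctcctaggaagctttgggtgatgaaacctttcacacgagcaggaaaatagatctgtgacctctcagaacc

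The PU.1 core begins 95 bases before the start site in Prtn3, 85 before it in Elane and 216 before it in Ctsg. Of all 32851 mouse promoters of this length, 28.3% hold the PU.1 core, 16.8% the Runx core and 40.7% the C/EBP core. The letters TTNNGNAA were not in the 3 protease promoters, and Ctsg had 1 match to the Runx core. These letters ask for TT at their start, so near forms were not counted. The Elane promoter holds such a form, tggggcaa, with G in place of the second T. AACNG, the core of Myb sites, was found in all 10 promoters but is present in 80.3% of mouse promoters, and it is not marked here. A match is a description of letters and does not show binding.

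Prtn3 had 309 reads without IL-6 and 111 reads with it. The ratio of scaled signal was 0.373 (0.297 to 0.465), a log2 ratio of -1.42. It was the 1 gene of the 10 that was at least 2-fold lower, and 13.4% of the tested genes were. Ctsg had 141 reads before and 73 after treatment. Its ratio was 0.537 (0.399 to 0.718), or -0.89 on the log2 scale. Elane had 60 and 41 reads, and its ratio of 0.709 has an interval (0.465 to 1.07) that includes no change. With a fold of at least 1.5, Prtn3 and Ctsg were lower, 2 of 10, against 23.2% of tested genes. The direction rests on the scaling of the libraries. With a factor taken from single windows that have more than 21 reads in both libraries, chosen after seeing the data, every log2 ratio shifts by 1.83, the ratio of Prtn3 becomes 1.33 (1.06 to 1.65) and all 10 ratios are above 1, while the order of the genes stays as it is. With this factor 8 of the 10 genes are at least 2-fold higher, as are 84.9% of the 20848 genes then tested, and 0 are at least 2-fold lower, against 0.0767%.

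At Prtn3 and Ctsg the ratio was close to that of other genes with as much signal in untreated cells. At Elane it was lower than the median of such genes, but its interval includes that median. The 633 tested genes whose untreated signal was within 25% of that of Prtn3 had a median log2 ratio of -1.40, and Prtn3 was at the 48.0 percentile among them. The 1357 genes matched to Ctsg in this way had a median of -0.86, and Ctsg was at the 48.3 percentile. For Elane, 2999 genes had a median of -0.23 and the gene was at the 30.8 percentile. Over the whole table the log2 ratio went down with the untreated level. The 3526 tested genes with at least 20 reads per window in untreated cells had a median log2 ratio of -1.13, and 93.8% of them were lower. The 9858 tested genes with under 10 reads per window had a median of 0.30, and 24.8% were lower. The untreated signal enters both measures, and when genes were matched on the sum of both libraries Prtn3 was at the 38.6 percentile of 795 genes, Ctsg at the 34.1 percentile of 2044 and Elane at the 24.9 percentile of 4291, close to its 26.0 percentile among all tested genes.

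**Figure D2:**
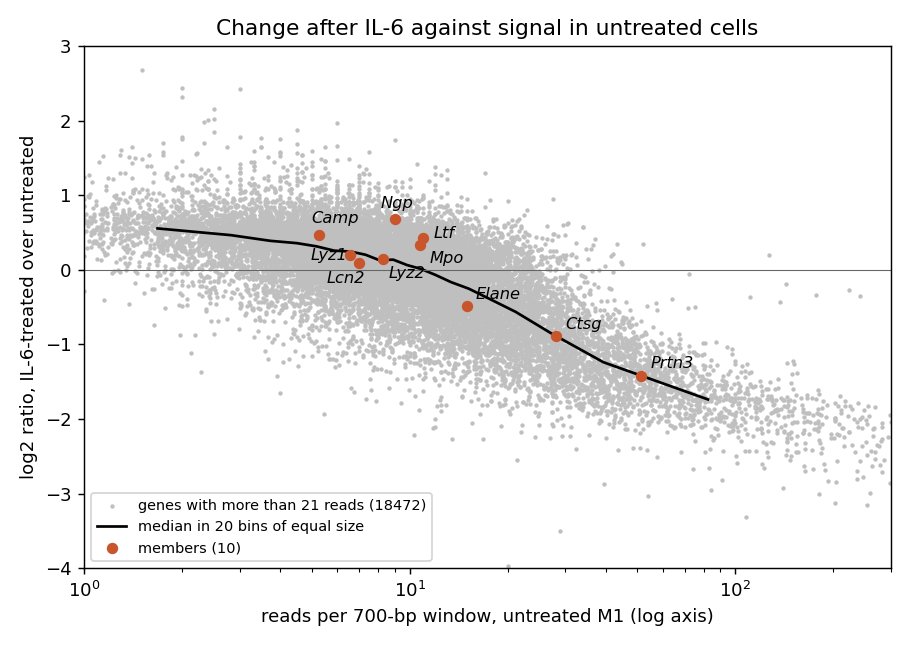
Log2 ratio of IL-6-treated over untreated signal against reads per 700-bp window in untreated M1 cells (log axis) for the 18472 tested genes (gray, those inside the axes), their median in bins (black line) and the 10 genes described (orange). Prtn3, Ctsg and Elane lie near or below the falling line, and Ngp, Ltf and Mpo lie above it.

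The windows of Prtn3 could be separated further, because a shorter transcript covers the inner 3 windows, from 79343601 to 79345700, which touch exons 3 to 5. The last exon runs on into the next window. In untreated cells the mean and SD of these windows allow a single set of reads, 101, 88 and 31. The 3 remaining windows, of which a pair lies at the promoter end and the other at the end of the gene, held 46, 26 and 17 reads. The order of the windows within each set is not known. The gene therefore had 5 of 6 windows above 21 reads, and its strongest window lay inside the gene and not at the promoter end. In IL-6-treated cells the inner windows held either 43, 26 and 13 reads or 37, 35 and 10 reads, and 2 of the 6 windows were above 21 scaled reads. The ratio was 0.387 (0.297 to 0.501) in the inner windows and 0.338 (0.214 to 0.520) in the others, and these intervals overlap.

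With the deposited scaling Ctsg became even as well as lower. With the factor from single windows its ratio was 1.91 (1.42 to 2.55). In untreated cells its 5 windows had an SD of 15.6 reads around the mean of 28.2, and the strongest held between 38 and 56 reads. After IL-6 the SD was 2.99 scaled reads around 15.2, and the strongest window held between 17.6 and 19.7 scaled reads. The variance of the reads between windows was 8.64 times their mean before treatment and 0.568 times after it, where counting error alone gives a value near 1. With the deposited scaling, at least 2 windows of Ctsg were above 21 reads in untreated cells and 0 of 5 after IL-6. Elane had 21 to 28 reads in its strongest window in untreated cells and 14.5 to 16.6 scaled reads after IL-6.

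Mpo encodes myeloperoxidase, which makes hypochlorous acid from hydrogen peroxide and chloride and is a classical marker of the myeloid lineage. It lies on chromosome 11 from 87607083 to 87617915 on the plus strand. Its coding span touches 14 windows, from 87607801 to 87617600, and none of the 300 promoter bases falls in them. Mpo had 151 reads before treatment and 183 after it, or 10.8 and 13.6 scaled reads per window. The ratio was 1.26 (1.01 to 1.57), a log2 ratio of 0.33, at the 71.1 percentile of tested genes. With no scaling it was 1.21 (0.972 to 1.51), and with the transcript of fewest windows 1.04 (0.649 to 1.66), so that both intervals then include no change. Among 4017 genes with untreated signal within 25% of its own it was at the 78.9 percentile.

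5 transcripts of Mpo with different ends divide its span into 4 parts. The first window had 3 reads in untreated cells and 7 reads after IL-6. The next 2 windows, from 87608501 to 87609900, touch exons 4 to 7 of 14 and held 39 reads in each library. In untreated cells these were 32 and 7 reads, and in IL-6-treated cells 31 and 8 reads, or 32.2 scaled reads in the stronger window. The 8 middle windows had 66 and 78 reads, with a ratio of 1.23 (0.873 to 1.73). The last 3 windows, from 87615501 to 87617600, had 19, 15 and 9 reads in untreated cells and 26, 20 and 13 reads after IL-6, with a ratio of 1.42 (0.945 to 2.16). Mpo thus held a window above 21 reads in both libraries, within the same pair of windows and with nearly the same reads, whereas the strongest window of Prtn3 went from 101 reads to between 38.4 and 44.6 scaled reads.

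**Figure D3:**
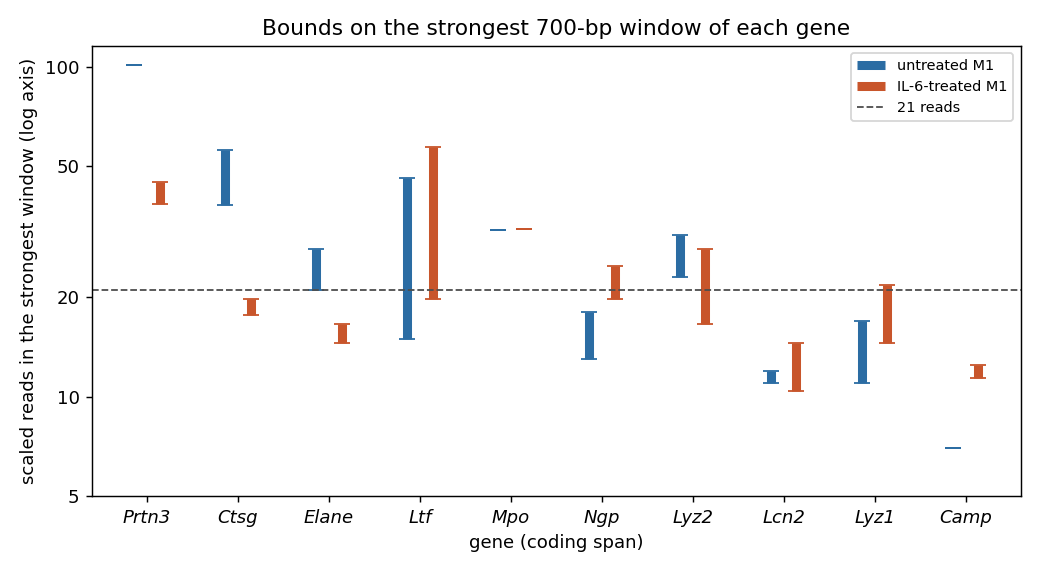
Lowest and highest number of scaled reads (log axis) that the mean, the SD and the number of windows allow in the strongest 700-bp window of each gene, for untreated M1 cells (blue) and IL-6-treated M1 cells (orange). The dashed line marks 21 reads, which only Prtn3 and Mpo passed with certainty in both libraries.

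Lyz1 and Lyz2 encode 2 lysozymes, enzymes that cut the peptidoglycan of bacterial walls. Lyz2 is the form of macrophages and neutrophils and Lyz1 that of Paneth cells of the gut. They lie side by side on chromosome 10 on the minus strand, Lyz2 from 116714390 to 116719377 and Lyz1 from 116724852 to 116729924, with 4 coding exons and 7 windows each. Lyz2 had 58 reads in untreated cells and 62 reads after IL-6, a ratio of 1.11 (0.763 to 1.62). Lyz1 had 46 and 51 reads, a ratio of 1.15 (0.757 to 1.75). Both intervals include no change. Both genes lay near the median gene, at 8.29 and 6.57 reads per window in untreated cells. Their levels did not differ from each other beyond counting error. In untreated cells Lyz2 was the more uneven, with a strongest window of 23 to 31 reads against 11 to 17 at Lyz1, and after IL-6 these bounds overlapped, at 16 to 27 and 14 to 21 unscaled reads.

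The copies share sequence. Of the 32-bp positions in the windows of Lyz2, 27.7% are also found in those of Lyz1, and 64.3% occur once in NCBIM37, against 70.6% at Lyz1. At the 8 other genes between 92.5% and 99.8% of positions occur once. How reads that match several places were treated is not given in the sources used here, so the split of reads between Lyz1 and Lyz2 is uncertain. Their summed reads were 104 and 113, or 7.43 and 8.38 scaled reads per window.

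The 4 specific granule genes all had ratios above 1, and for Ltf and Ngp the interval lay above 1. Ltf encodes lactotransferrin, which binds iron, and lies on chromosome 9 from 110921796 to 110945270 with 17 coding exons and 34 windows. It had 373 reads before treatment and 485 after it. The ratio was 1.35 (1.18 to 1.55), or 0.43 on the log2 scale. Ngp, which encodes a granule protein related to the cathelicidins and cystatins, lies on the same chromosome from 110322254 to 110325514 with 4 coding exons and 5 windows. It had 45 and 70 reads. The ratio was 1.61 (1.09 to 2.40), or 0.69 on the log2 scale. This was the highest ratio of the 10 genes, at the 93.5 percentile of tested genes. Among genes with untreated signal within 25% of their own, Ngp was at the 95.9 percentile of 4163 and Ltf at the 86.5 percentile of 3995. In the order of ratios Ngp came first, then Camp, Ltf and Mpo, and the intervals of these 4 genes overlap.

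The windows of Ltf hold all 300 bases of its promoter and those of Ngp 261. Both are shown because they lie within the measured windows and hold the letters TTNNGNAA. The protease promoters have no exact match to these letters in their 300 bases, although Elane has the near form given above.

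Ltf, chr9:110921546-110921845, plus strand: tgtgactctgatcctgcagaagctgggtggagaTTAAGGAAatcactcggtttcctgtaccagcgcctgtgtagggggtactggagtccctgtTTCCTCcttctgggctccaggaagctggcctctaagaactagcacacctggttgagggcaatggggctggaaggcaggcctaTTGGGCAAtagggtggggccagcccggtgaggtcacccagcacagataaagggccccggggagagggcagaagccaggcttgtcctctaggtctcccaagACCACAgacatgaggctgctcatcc

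Ngp, chr9:110322062-110322361, plus strand: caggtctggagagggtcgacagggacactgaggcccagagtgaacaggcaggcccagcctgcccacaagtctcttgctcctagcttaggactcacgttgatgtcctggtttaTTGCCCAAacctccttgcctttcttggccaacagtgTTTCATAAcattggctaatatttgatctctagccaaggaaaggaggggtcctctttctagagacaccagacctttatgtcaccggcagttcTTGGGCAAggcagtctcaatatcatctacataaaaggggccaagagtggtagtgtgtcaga

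The C/EBP core was found 3 times in the promoter of Ngp, beginning 138, 102 and 11 bases before the start site, and 2 times in that of Ltf, 217 and 75 bases before it. In all, 5 of the 10 promoters hold this core, namely those of Ltf, Ngp, Lcn2, Lyz1 and Lyz2, against 40.7% of all promoters, 6 hold the PU.1 core, against 28.3%, and 3 the Runx core, against 16.8%. Mpo and Camp, whose ratios were also above 1, have no match to the C/EBP letters in their 300 promoter bases. Ltf holds the PU.1, Runx and C/EBP cores, and Ngp neither the PU.1 nor the Runx core within these 300 bases.

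Camp and Lcn2 had the fewest reads of the 10 genes in both libraries, with signal per window a little below the median gene. Camp, on the minus strand of chromosome 9 between 109749889 and 109751970, encodes the cathelicidin antimicrobial peptide. Its 4 windows held 7, 5, 5 and 4 reads in untreated cells, 21 in all, and 28 reads after IL-6. The ratio was 1.38 (0.758 to 2.56). Lcn2 encodes lipocalin 2, which binds bacterial siderophores, and lies between 32240153 and 32243317 on chromosome 2, minus strand. It had 35 reads and 36 reads over 5 windows, a ratio of 1.07 (0.652 to 1.75). No window of Camp or Lcn2 was above 14.5 scaled reads in either library. The intervals of both genes include no change, so no difference was detected at either.

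Over the 10 genes the median log2 ratio was 0.18, against 0.03 over all tested genes, with 3 genes lower and 7 higher, where 48.3% of tested genes were lower. None was at least 2-fold higher, and 1.71% of tested genes were. With a fold of at least 1.5, Ngp alone was higher, 1 of 10 against 10.8% of tested genes. The interval lay below 1 at Prtn3 and Ctsg, 2 of 10 against 34.4% of tested genes, and above 1 at Mpo, Ltf and Ngp, 3 of 10 against 29.0%, of which Mpo is lost with no scaling. With 10 genes these shares do not set the genes apart from the table.

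Base composition differed between the genes. The windows of Prtn3 had 56.1% G and C, at the 93.8 percentile of genes, and those of Lcn2 had 53.7% and of Elane 52.3%. Lyz1 had the lowest share, 46.2%, close to the median gene with 45.6%. Lcn2, with a GC share above that of Elane and Ctsg, had 7.0 reads per window in untreated cells against 15.0 and 28.2. The part of base composition in the levels was not tested.

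The nearest listed genes were set beside each gene, without matching on signal. Of the genes next to Prtn3 and Elane, Cfd, the adipsin gene 2.81 kb beyond Elane, had a ratio of 0.911 (0.591 to 1.40), and BC005764, 5.58 kb before Prtn3, had 0.677 (0.577 to 0.792). The interval of Prtn3 lies below those of both, but further genes of this stretch were lower too. Ptbp1 had 0.232 (0.208 to 0.259), below Prtn3, and Med16 had 0.493 (0.432 to 0.562). Both are named after their values were seen. Ctsg, with 28.2 reads per window in untreated cells, had a lower ratio than its neighbors Mcpt8, with 9.4, and Gzme, with 7.0. Mcpt8, a mast cell and basophil protease gene 14.8 kb away, had 47 and 67 reads and a ratio of 1.48 (1.00 to 2.20), and Gzme, a granzyme gene 15.3 kb away on the other side, had 35 and 52 reads and a ratio of 1.54 (0.986 to 2.44). At Ngp the neighbors were lower, with 0.781 (0.700 to 0.871) at Ptpn23 and 0.558 (0.517 to 0.600) at Klhl18, and both had more signal in untreated cells, 22.7 and 28.9 reads per window against 9.0. Lcn2, with a ratio of 1.07, lies between 1110008P14Rik with 0.571 (0.431 to 0.753) and Ptges2 with 0.399 (0.332 to 0.476), which had 29.8 and 44.8 reads per window in untreated cells. The peroxidase gene Lpo, 3.25 kb beyond Mpo, had a ratio of 1.15 (0.928 to 1.42).

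**Figure D4:**
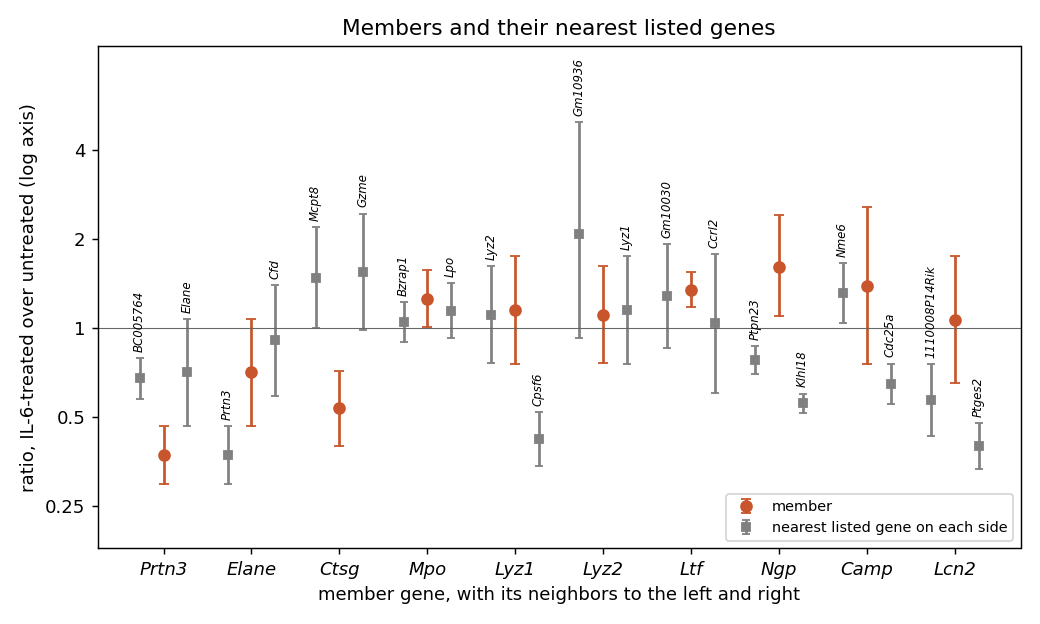
Ratio of IL-6-treated over untreated scaled signal (log axis) with 95% Clopper-Pearson intervals for each gene (orange circles) and for the nearest listed gene on either side (gray squares), 1 library per condition. With the deposited scaling Prtn3 and Ctsg lie below 1 and below the nearest listed genes, while Mpo, Lyz1, Ltf, Ngp, Camp and Lcn2 have ratios above both of theirs, many with overlapping intervals.

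Another 35 genes were taken as a list under the headings azurophil, eosinophil and specific granule genes and peroxidases. Whether each product is stored in granules was not checked, and the specific heading includes receptors such as Ltb4r1. Of the 35 genes, 31 had more than 21 reads in either library. At least 2-fold lower were 3, and at least 2-fold higher were 3, against 13.4% and 1.71% of the table. Their median log2 ratio was 0.02. The lower genes were Cyba, with a ratio of 0.410 (0.358 to 0.468), which encodes a subunit of the phagocyte oxidase, Ctsc, with 0.465 (0.389 to 0.554), the peptidase that activates the granule serine proteases, and Prss57, with 0.483 (0.370 to 0.626), a further azurophil serine protease. The higher genes were Prg3, with 2.22 (1.48 to 3.40), and Prg2, with 2.08 (1.20 to 3.69), which encode major basic proteins of eosinophils, and Ltb4r1, with 2.18 (1.39 to 3.49), the leukotriene B4 receptor. Cyba had the most signal of the list in untreated cells, 65.0 reads per window, and Ear1 the least, 0.50. Of the 8 azurophil genes, 4 had an interval below 1 and 0 an interval above 1, against 34.4% and 29.0% of the table. Srgn, the proteoglycan that packs the granule proteases and is named here after its value was seen, was 1 of the 4 with a ratio of 0.504 (0.420 to 0.603). Of the 19 tested genes under the specific heading, 6 had an interval below 1 and 4 above it, against the same shares of the table.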

How the data were processed

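DNase I hypersensitivity was sequenced in M1 cells without and with IL-6, 1 library each. Per the methods and the labels, the authors used BWA to align trimmed reads to NCBIM37 and made the table in Seqmonk. The BWA version is not given in the sources used here. The deposited signal is the mean and the SD over 700-bp windows. A column of the table without values was not used.

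Reads were recovered as mean times windows divided by the value of 1 read, within 0.05 of a whole number in 100% of the rows. Sums of squares, from mean and SD, gave the bounds of single windows by enumeration. On simulated windows both read numbers were recovered in 17979 of 17979 genes, and 189 of 200 changed genes had the true ratio in the interval. The simulated windows had counting error alone around a single level per gene. The coverage therefore says nothing of other variation between windows or libraries. Ratios have Clopper-Pearson intervals. Log2 ratios add 0.5 reads to each library. A gene was tested against a fold of 2 or 1.5 when either library had more than 21 scaled reads over its coding span. The genes and lists were chosen with earlier results of these data known. Named are the 10 genes, their nearest listed genes, and of the 35 other listed genes those at least 2-fold changed and those with most and least signal. Srgn was named after its values were seen. Alternatives covered the scaling, the reads added, the transcript, the fold, the read minimum and the matching. Positions between genes are not analyzed here. Python 3.11.15, numpy 2.4.6, pandas 2.3.3, scipy 1.17.1, numba 0.67.0 and matplotlib 3.10.9 were used.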

Additional observations from a re-analysis of the deposited data

How the results depend on the processing

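No paired analysis was possible because there is 1 library per condition, and for the same reason no library could be left out. For 23 results 128 alternative values were computed, of which 109 did not move and 19 did. A ratio or median counted as moved outside its reported counting interval, a percentile outside those of the interval's bounds, and a count beyond 1.5 times. With no scaling, the total over coding spans, the median of ratios over genes, the trimmed mean over genes, 5 reads added or the transcript with fewest windows, Prtn3, Ctsg and Elane stayed below 1 and the other 7 genes above it. The scaling by the median of ratios over 546 single windows with more than 21 reads in both libraries, chosen after seeing the data, shifts every log2 ratio by 1.83. With it the ratio of Prtn3 was 1.33 in place of 0.373, 0 genes passed a 2-fold decrease and 8 a 2-fold increase, against 0.0767% and 84.9% of tested genes, and the median log2 ratio was 2.01. The cause of this gap between scalings was not tested. With a fold of 1.5, 2 genes were lower and 1 higher. The order of the 10 ratios does not depend on one common factor. Among all tested genes Prtn3 was at the 6.92 and Ctsg at the 15.5 percentile, against 38.6 and 34.1 when matched on summed signal and 48.0 and 48.3 on untreated signal. The interval of Mpo includes 1 with no scaling and with the transcript of fewest windows. Depth limits Camp, Lcn2, Lyz1, Elane, Ngp and Lyz2 most, with 49 to 120 reads over both libraries.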

Other observations

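Ctsg stands in a cluster of mast cell protease and granzyme genes on chromosome 14. With the deposited scaling its ratio lay on the other side of 1 from those of the 6 other genes looked at there. These 6 were chosen after their values were seen. With the factor from single windows, which raises every ratio, Ctsg had 1.91 (1.42 to 2.55) and none of these genes lies below 1. Mcpt2 had 32 reads in untreated cells and 56 reads after IL-6, Mcpt4 27 and 47 reads, and Mcpt8 47 and 67 reads. Gzme had 35 and 52 reads, Gzmd 21 and 52 reads, and Gzmg 23 and 45 reads. All 6 were higher after IL-6 with the deposited scaling, although the interval of Gzme includes no change, with ratios from 1.48 at Mcpt8 to 2.57 at Gzmd, and each of the spans has 4 or 5 windows. Of all tested genes with under 10 reads per window in untreated cells, as these have, 24.8% were lower and the median log2 ratio was 0.30, while genes with as much signal as Ctsg had a median of -0.86, and the 6 genes had log2 ratios from 0.56 to 1.34. They were not matched on level to other genes. Ctsg, with 141 and 73 reads, had 28.2 reads per window in untreated cells where these genes had 4.20 to 9.40. After IL-6 the cluster was more even, with 9.34 to 15.2 scaled reads per window. The granzyme and mast cell protease genes are close copies, and how their reads were divided is not given in the sources used here.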
